A study of Mus musculus with 6 samples.

Results

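Axon guidance ligands and receptors were profiled on microarrays of sciatic nerve from 3 pools of OGT_SCKO mice and 3 pools of Ctrl littermates, all aged 1 month, with 1 array per pool. Both groups were of the strain the labels give as C56 BL6, and no injury or other treatment is given in the labels. OGT is the enzyme that attaches the sugar O-GlcNAc to nuclear and cytoplasmic proteins, and per the series title the study concerns this modification in Schwann cells, which ensheathe the axons of peripheral nerves. The labels used here name neither the allele nor the Cre driver, and give no sex or number of mice per pool. The genes were chosen by name: every probe on the array named as a semaphorin, plexin, neuropilin, Slit, Robo, netrin, Unc5, Dcc, ephrin or Eph receptor. This gave 102 of 39429 probes and 71 gene names. Unc50, a Golgi protein, and Plxna4os1, an antisense RNA, carry such names without being guidance ligands or receptors, which left 69 genes. Of these, 62 had a probe that cleared background in every pool of OGT_SCKO, of Ctrl or of both and were measured, out of 19051 genes tested in all. Those with no such probe were Epha3, Epha8, Robo2, Ntn4, Unc5d, Sema3a and Sema3d, as was Plxna4os1, and Unc50 was measured (log2 fold change 0.02, SE 0.14).

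Guidance molecules tell growing axons and migrating cells where to go. Semaphorins signal through plexins, with neuropilins as co-receptors of the secreted class, Slits through Robos, and netrins through Dcc and the Unc5 receptors. Ephrins are membrane-bound ligands of the Eph receptor tyrosine kinases, and signal in both directions where cells touch. In peripheral nerve these systems are known for sorting Schwann cells into cords after injury, for guiding regrowing axons across a wound, and for patterning blood vessels.

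Values are processed signals on a log2 scale, set relative to each array's 75th percentile, and a difference of 1 is 2-fold. Each probe has its own brightness, so values are compared between pools and not between genes. On each array 58.9% to 65.2% of probes cleared background, and no spot outside the controls was flagged as saturated. Ogt, the targeted gene, stood at -0.89, -1.01 and -1.01 in OGT_SCKO pools, against 0.46, 0.35 and 0.11 in Ctrl pools, which is 41.3% of the Ctrl level. The labels do not name the deleted stretch of Ogt, so whether the probe lies in it is unknown. Of the Schwann cell markers, the transcription factor Sox10 was bright in every pool and overlapped between groups, at 4.43 to 5.26 in OGT_SCKO pools and 4.95 to 5.44 in Ctrl pools. Over 7 Schwann cell markers, all measured, the mean value was 4.94 to 5.44 in OGT_SCKO pools and 5.50 to 5.77 in Ctrl pools, which do not overlap, and the median log2 fold change was -0.41. Of these S100b and Prx fell and the other 5 did not pass (limma log2 fold changes -0.67 and -0.53 for the pair, adjusted p = 0.0114 and 0.0375). The list mean was lowest in OGT_SCKO 2 and highest in Ctrl 2, the arrays with the highest and lowest 75th percentile (6136 and 2749). Mbp, a Schwann cell marker whose -0.41 is the list's median, read 5.79 and 6.98 on these 2 arrays. The part of this scaling in the marker difference was not tested, nor was the part of the marker difference in the results on guidance genes. The 3 OGT_SCKO arrays and Ctrl 2 shared a slide, and Ctrl 1 and Ctrl 3 lay on another. With slide as a block, or within the shared slide, OGT_SCKO is therefore set against Ctrl 2 alone.

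Guidance genes changed in both directions in OGT_SCKO nerves. Of the 62 measured genes 14 were higher, 6 were lower and 42 did not pass the test (limma, Benjamini-Hochberg adjusted p under 0.05 over all genes tested). That is 22.6% higher and 9.68% lower, while over all genes tested 11.2% were higher and 12.1% lower. In either direction 32.3% of the guidance genes were called, against 23.3% of all genes. Passing the filter through 1 group alone favours a difference without forcing one. Robo1 and Sema4f, which were called, and Epha1 and Robo3, which were not, passed through OGT_SCKO alone. Among the 58 guidance genes above background on all 6 arrays 12 were higher and 6 lower, or 31.0%, against 22.1% of the 17787 genes above background on all 6 arrays. The median log2 fold change was 0.12 for the 62 genes and -0.07 for all genes tested, and the median size of the change was 0.46 and 0.32. The 3 OGT_SCKO pools did not overlap the 3 Ctrl pools in 35 of the 62 genes, or 56.5%, and in 45.7% of all genes. Of the 14 rises semaphorins, with 18 measured genes, supplied 5, Eph receptors, with 12, supplied 3, and plexins, with 9, supplied 3. Eph receptors also supplied 3 of the 6 falls.

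**Figure D1:**
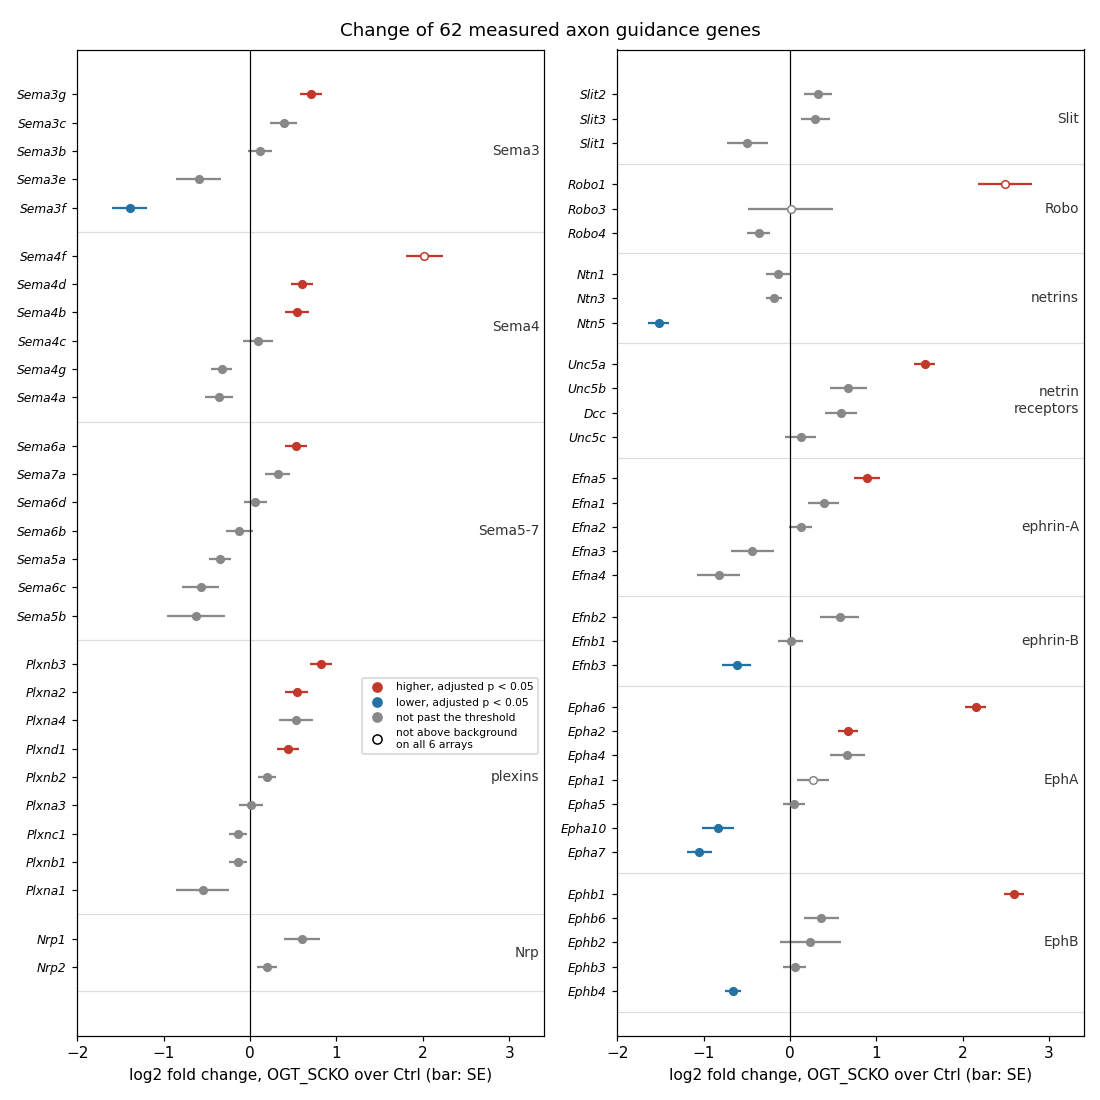
Log2 fold change of OGT_SCKO over Ctrl for each of the 62 measured guidance genes, by family, with the SE of the limma fit (3 pools per group). Red points were higher and blue points lower at an adjusted p under 0.05, grey points did not pass, and open points were not above background on all 6 arrays. Ephb1, Robo1, Epha6, Sema4f and Unc5a lie above 1.5, and Ntn5, Sema3f and Epha7 lie below -1.

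Eph receptors, the receptor tyrosine kinases of the ephrins, held the largest change that was measured on both sides. Ephb1, a receptor of B-type ephrins, read 1.20, 1.52 and 1.35 in OGT_SCKO pools, against -1.22, -1.17 and -1.32 in Ctrl pools. Every OGT_SCKO pool lay far above every Ctrl pool, and the spread within each group was small. The mean was 1.36 ± 0.157 in OGT_SCKO and -1.24 ± 0.0717 in Ctrl (SD, n = 3 each), a 6.04-fold rise (limma log2 fold change 2.59 with an SE of 0.12, adjusted p = 0.000162). Its probe lies on chromosome 9 at 101824549 to 101824608 (mm9). With the slide block the log2 fold change was 2.53 (adjusted p = 0.00478), and within the shared slide it passed as well (adjusted p = 0.0209). Epha6, a receptor of A-type ephrins, read -1.96, -1.73 and -1.85 in OGT_SCKO pools, against -4.13, -4.04 and -3.82 in Ctrl pools. It rose 4.44-fold (limma log2 fold change 2.15 with an SE of 0.13, adjusted p = 0.000218; 2.19 under the slide block, adjusted p = 0.00606). The probe lies on chromosome 16 at 59653458 to 59653517 (mm9), and both genes were above background on all 6 arrays.

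Of the other Eph receptors 1 rose and 3 fell. Epha2, an Eph receptor of epithelial and endothelial cells, read 1.38, 1.45 and 1.63 in OGT_SCKO pools, against 0.69, 0.82 and 0.93 in Ctrl pools, a 1.59-fold rise (limma adjusted p = 0.0106). Epha7 fell 2.07-fold, with -3.66, -3.60 and -4.01 in OGT_SCKO pools and -2.84, -2.67 and -2.61 in Ctrl pools (limma adjusted p = 0.00425). Its second measured probe had a log2 fold change of -0.44 that did not pass (adjusted p = 0.0948), and with normexp background correction the call ended (1.55-fold, adjusted p = 0.129). Epha10, which lacks an active kinase, read -1.64, -2.10 and -1.52 in OGT_SCKO pools, against -1.13, -0.75 and -0.88 in Ctrl pools, a 1.79-fold fall (limma adjusted p = 0.0218). That call ended with normexp (adjusted p = 0.0659) and without Ctrl 2 or Ctrl 3. Ephb4, the receptor that marks veins, was 1.57-fold lower: -1.07, -1.12 and -1.08 in OGT_SCKO pools and -0.41, -0.46 and -0.44 in Ctrl pools. The pools of each group lay close together, and both Ephb4 probes fell (log2 fold changes -0.65 and -0.65, limma over probes, adjusted p = 0.00464 and 0.00576). With the slide block Epha2, Epha10 and Ephb4 missed the threshold (adjusted p = 0.102, 0.0863 and 0.069).

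The remaining 6 measured Eph receptors had log2 fold changes of 0.05 to 0.66 that did not pass. Epha4, a receptor of both ephrin classes, came closest, with -2.64, -2.10 and -2.43 in OGT_SCKO pools and -2.71, -3.20 and -3.26 in Ctrl pools (log2 fold change 0.66, limma adjusted p = 0.0591). Ephb6, which also lacks kinase activity, had probes that differed in call, at 0.36 (limma over probes, adjusted p = 0.226) and 0.62 (adjusted p = 0.0451). Ephb6 passed with quantile scaling (0.53, limma adjusted p = 0.0203), the deposited values (0.50, 0.0214) and the mean of its probes (0.49, 0.0328). The gene did not pass with normexp (0.33, limma adjusted p = 0.257) or with any pool left out. Ephb2, the receptor known for sorting Schwann cells at the injury site, spread widely within both groups, from 0.36 to 1.38 in OGT_SCKO pools and from 0.27 to 1.31 in Ctrl pools. Its log2 fold change was 0.24 with an SE of 0.35, so a change of moderate size was not detectable with these arrays.

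**Figure D2:**
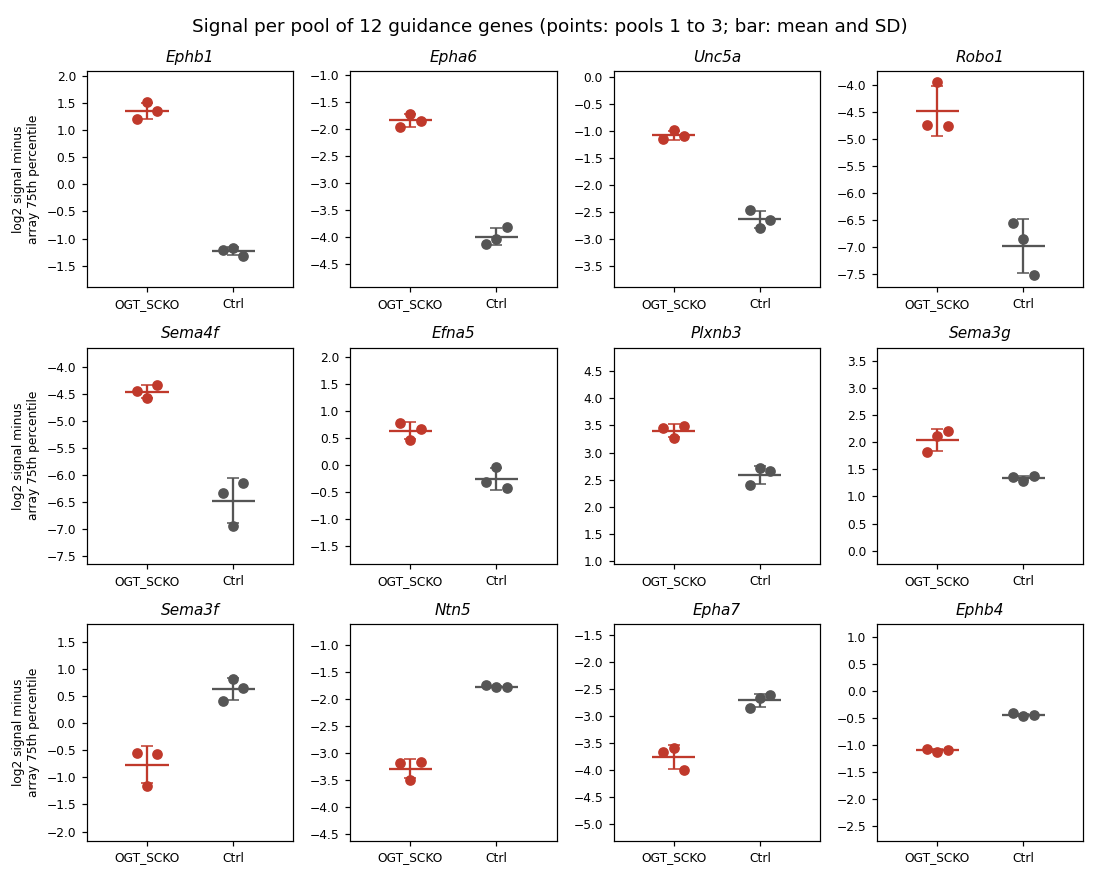
Log2 signal minus the array's 75th percentile in each pool for 12 guidance genes, with group means and SD (OGT_SCKO red, Ctrl grey, n = 3 each). Every panel spans 4 log2 units but has its own origin. In all 12 panels the OGT_SCKO pools do not overlap the Ctrl pools, with the widest distance in Ephb1.

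Ephrins are the ligands of these receptors. Of 8 measured ephrins 1 rose, 1 fell and 6 did not pass. Efna5, a ligand of A-type Eph receptors, rose 1.86-fold, with 0.78, 0.46 and 0.67 in OGT_SCKO pools, against -0.32, -0.03 and -0.43 in Ctrl pools (limma log2 fold change 0.89 with an SE of 0.15, adjusted p = 0.00817; 0.66 under the slide block, adjusted p = 0.0991). Efnb3, a B-type ligand, was 1.53-fold lower, at -1.04, -0.76 and -1.29 in OGT_SCKO pools and -0.23, -0.52 and -0.49 in Ctrl pools (limma adjusted p = 0.0407). The Efnb3 call held in 1 of the 6 fits that leave out a pool, and ended with normexp (adjusted p = 0.0738) and under the slide block (adjusted p = 0.241). Efna4 read -0.45, -1.36 and -0.48 in OGT_SCKO pools and -0.02, 0.15 and 0.05 in Ctrl pools, without passing (adjusted p = 0.0577). OGT_SCKO 2 was the lowest pool, and without it the log2 fold change of -0.52 passed (limma adjusted p = 0.0206). For Efnb2, an arterial ligand of Ephb4, the log2 fold change of 0.58 did not pass (adjusted p = 0.106), and its second probe gave 0.05.

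Of the Slit and Robo genes, Robo1 alone was called among the 6 measured. Robo1, a receptor of Slits, cleared background on all 3 OGT_SCKO arrays and on no Ctrl array. It read -4.74, -3.96 and -4.76 in OGT_SCKO pools, against -6.55, -6.86 and -7.52 in Ctrl pools. Set against the lowest signal that counts as above background, it was at least 1.48-fold higher in OGT_SCKO (limma adjusted p = 0.00308; 0.0452 with the slide block and 0.0636 within the shared slide). Its second probe was not above background on any array. The ligands Slit1, Slit2 and Slit3 had log2 fold changes of -0.49, 0.33 and 0.30, none of which passed (adjusted p = 0.171, 0.195 and 0.225). Robo4, which belongs to endothelial cells, had a log2 fold change of -0.36 (adjusted p = 0.0952).

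Netrins and their receptors gave 1 rise and 1 fall among 7 measured genes. Unc5a, a receptor of netrins that mediates repulsion, read -1.15, -0.98 and -1.08 in OGT_SCKO pools, against -2.46, -2.78 and -2.65 in Ctrl pools. It rose 2.95-fold (limma log2 fold change 1.56 with an SE of 0.12, adjusted p = 0.000507), and it passed with the slide block (1.71, adjusted p = 0.00722) and within the shared slide (adjusted p = 0.0317). The probe lies on chromosome 13 at 55107318 to 55107377 (mm9). Ntn5, a member of the netrin family, fell 2.86-fold, with -3.20, -3.50 and -3.18 in OGT_SCKO pools and -1.75, -1.78 and -1.79 in Ctrl pools (limma log2 fold change -1.52 with an SE of 0.12, adjusted p = 0.000565). The Ctrl pools lay close together, and the fall passed with the slide block (adjusted p = 0.0141) but not within the shared slide (adjusted p = 0.0559). Ntn1, the classical ligand of Dcc and the Unc5 receptors, read -1.03, -0.77 and -1.15 in OGT_SCKO pools and -0.73, -0.98 and -0.81 in Ctrl pools, which overlap (log2 fold change -0.14, SE 0.14). Unc5b, a netrin receptor of vessels, had a log2 fold change of 0.68 that did not pass (adjusted p = 0.064).

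The value for Dcc rests on a probe that the files place elsewhere in the genome. That probe, on chromosome 7 at 68417162 to 68417221 (mm9), read 1.41, 1.92 and 1.69 in OGT_SCKO pools, against 1.29, 1.18 and 0.78 in Ctrl pools (log2 fold change 0.59, adjusted p = 0.066). The gene itself is on chromosome 18 in RefSeq. Both Dcc probes that the files place on chromosome 18 were not above background on any of the 6 arrays. Through the probe on chromosome 7, Dcc is still counted in the 62 measured genes. It is also in the 58 above background on all 6 arrays and the 35 without overlap. A second Plxna2 probe is likewise placed on chromosome 14, while the probe that represents Plxna2 is on chromosome 1.

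Semaphorins were the largest family, with 18 measured genes, of which 5 rose, 1 fell and 12 did not pass. Sema4f, a transmembrane semaphorin, cleared background on no Ctrl array. It read -4.45, -4.57 and -4.34 in OGT_SCKO pools, against -6.32, -6.94 and -6.15 in Ctrl pools. It was at least 1.51-fold higher (limma adjusted p = 0.00159; with the slide block 0.00478, within the shared slide 0.0199), while with normexp background correction it did not pass (adjusted p = 0.0903). Another probe of Sema4f was above background on no array. Sema3f, a secreted repellent that binds Nrp2, was the only semaphorin that fell, 2.62-fold. It read -0.55, -1.17 and -0.57 in OGT_SCKO pools, against 0.41, 0.82 and 0.66 in Ctrl pools (limma log2 fold change -1.39 with an SE of 0.20, adjusted p = 0.00513; -1.58 under the slide block, adjusted p = 0.0372). All 3 OGT_SCKO pools lay below all Ctrl pools, with OGT_SCKO 2 the lowest.

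Sema3g, a secreted semaphorin of arterial endothelium, rose 1.63-fold, with 1.82, 2.11 and 2.21 in OGT_SCKO pools, against 1.36, 1.30 and 1.38 in Ctrl pools (limma adjusted p = 0.0118). Both of its probes were higher, with log2 fold changes of 0.70 and 1.34. Sema4d, a transmembrane ligand of B-type plexins, read -1.46, -1.61 and -1.52 in OGT_SCKO pools, against -2.19, -2.26 and -1.94 in Ctrl pools, a 1.52-fold rise (limma adjusted p = 0.017). Sema4b, of the same class, read -1.14, -0.98 and -0.88 in OGT_SCKO pools, against -1.74, -1.52 and -1.37 in Ctrl pools, a 1.45-fold rise (limma adjusted p = 0.034). Sema6a, a ligand of A-type plexins, read 0.69, 0.91 and 0.91 in OGT_SCKO pools, against 0.34, 0.44 and 0.14 in Ctrl pools, a 1.44-fold rise (limma adjusted p = 0.0285). The groups did not overlap in any of these 4 genes, but the distance between them was small. None of Sema3g, Sema4d, Sema4b and Sema6a passed with the slide block (adjusted p = 0.09, 0.072, 0.195 and 0.227). The other 12 ran from -0.62 to 0.39. They included Sema3b, with a mean of 5.20 ± 0.177 in OGT_SCKO and 5.09 ± 0.150 in Ctrl (SD, n = 3 each) and overlapping pools, and Sema5a, a ligand of Plxnb3, with a log2 fold change of -0.35 (adjusted p = 0.0902).

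Plexins and neuropilins gave 3 rises and no fall among 11 measured genes, and 8 did not pass. Plxnb3, a receptor of Sema5a, rose 1.77-fold, with 3.46, 3.27 and 3.49 in OGT_SCKO pools, against 2.39, 2.71 and 2.66 in Ctrl pools (limma log2 fold change 0.82 with an SE of 0.13, adjusted p = 0.00684; 0.70 under the slide block, adjusted p = 0.092). Plxna2, a receptor of class 6 semaphorins, read -1.21, -1.19 and -1.30 in OGT_SCKO pools, against -1.54, -1.95 and -1.82 in Ctrl pools, a 1.45-fold rise (limma adjusted p = 0.0309). Plxnd1, a receptor of Sema3e in vessels, read 2.33, 2.08 and 2.24 in OGT_SCKO pools, against 1.66, 1.94 and 1.74 in Ctrl pools, a 1.35-fold rise (limma adjusted p = 0.0483). Each of these last calls held in 1 of the 6 fits that leave out a pool, and neither passed with the slide block (adjusted p = 0.0776 and 0.322). The Plxna2 probe on chromosome 14 gave 0.02, and with the mean of its probes the gene did not pass. Nrp1 had a log2 fold change of 0.60 and Nrp2 of 0.19, and neither passed (adjusted p = 0.0851 and 0.236).

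The values of receptors and of ligands known to bind them are set side by side here as a description, for pairs chosen with the results known. Among the B-type ephrins that bind Ephb1, which had a log2 fold change of 2.59, Efnb1, Efnb2 and Efnb3 had log2 fold changes of 0.01, 0.58 and -0.61. For Epha6, at 2.15, the A-type ephrins ran from -0.82 for Efna4 to 0.89 for Efna5. Unc5a, at 1.56, had Ntn1 at -0.14, while Flrt3, an adhesion protein that binds Unc5 receptors, was at 1.64. The relatives of Flrt3 went the other way, with Flrt1 at -0.58, which did not pass, and Flrt2 at -0.95. Plxnb3, at 0.82, had Sema5a at -0.35. Epha2, at 0.67, had Efna5 at 0.89, while Efna1, Efna2, Efna3 and Efna4 were at 0.39, 0.12, -0.43 and -0.82. Plxna2, at 0.54 with a second probe at 0.02, had Sema6a at 0.53. Plxnd1, at 0.44, had Sema3e at -0.59, and Ephb4, at -0.65, had Efnb2 at 0.58. Of the secreted semaphorins that bind Nrp2, Sema3g was at 0.70 and Sema3f at -1.39. Sema3b and Sema3c, at 0.11 and 0.39, did not pass. By role, 8 of 30 measured receptors were higher and 3 lower, and 6 of 32 measured ligands were higher and 3 lower. The difference between receptors and ligands was not tested.

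**Figure D3:**
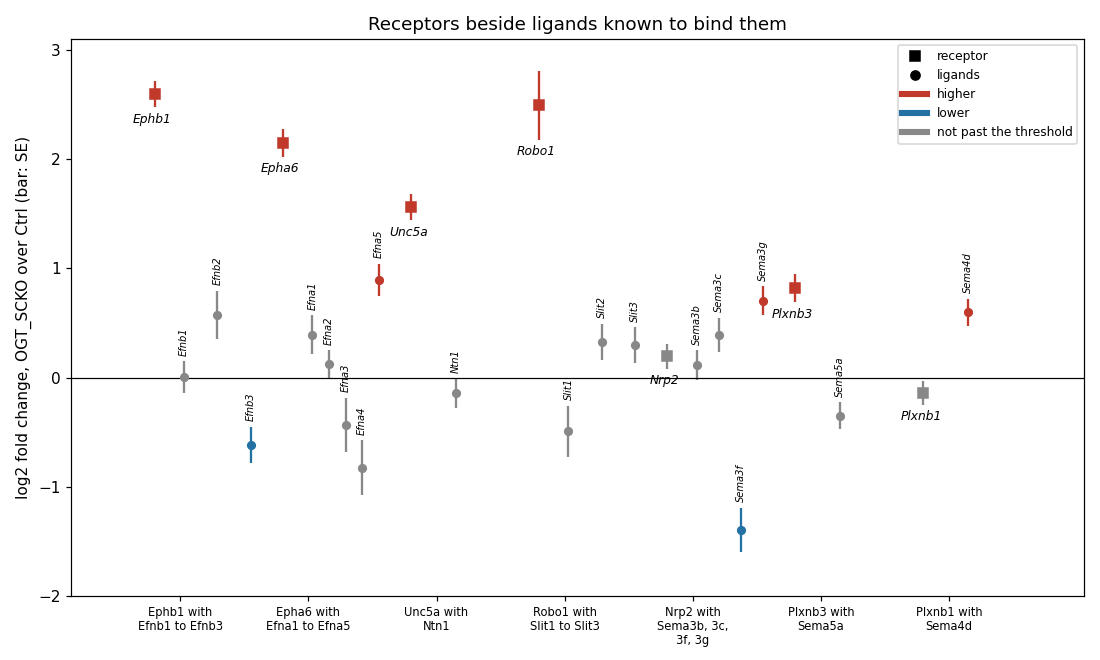
Log2 fold change of OGT_SCKO over Ctrl, with the SE of the limma fit, for 7 receptors (squares) and ligands known to bind them (circles). Robo1 cleared background on no Ctrl array, so its point is a fitted value and no measured fold. Red and blue mark genes higher and lower at an adjusted p under 0.05, and grey genes that did not pass. Efna5, Sema3g and Sema4d are the ligands in red, and Efnb3 and Sema3f those in blue.

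Markers of other cells in the nerve were read from the same fit, in which 23.3% of all genes tested were called. The called shares of the endothelial, mural, macrophage, neuronal and fibroblast lists lay below that. Of 10 endothelial markers, which include Robo4, none rose and 2 fell, Vwf and Egfl7. Their mean value was -0.06 to 0.25 in OGT_SCKO pools and 0.34 to 0.44 in Ctrl pools, and Ephb4 fell beside them while Sema3g and Plxnd1 rose. Of 5 perineurial markers Krt19 and Msln fell, with a list mean of 1.18 to 1.24 in OGT_SCKO pools and 1.76 to 2.01 in Ctrl pools. Of 6 mural markers Pdgfrb alone rose, with a list mean of 1.13 to 1.48 in OGT_SCKO pools and 1.45 to 1.61 in Ctrl pools. Of adipocyte markers 3 of 4 measured fell, with a list mean of -5.33 to -3.44 in OGT_SCKO pools and -2.83 to -0.83 in Ctrl pools, and Lep was not above background. Of skeletal muscle markers 4 of 5 measured fell, with -4.22 to -3.51 in OGT_SCKO pools and -2.57 to -2.20 in Ctrl pools, and Ckm was not above background. Of 6 macrophage markers Cx3cr1 alone rose (list mean 1.83 to 2.13 in OGT_SCKO pools, 1.60 to 1.89 in Ctrl pools). Of 6 neuronal markers Stmn2 alone fell (-1.61 to -1.49 in OGT_SCKO pools, -1.43 to -1.38 in Ctrl pools). None of 6 fibroblast markers passed (4.88 to 5.50 in OGT_SCKO pools, 5.30 to 5.79 in Ctrl pools). The part of these cells in the changes of guidance genes was not tested, and in whole nerve fewer cells of a type and less RNA per cell cannot be told apart.

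Other parts of the guidance pathways were read from the same fit. Of 20 further ligands, receptors and co-receptors 17 were measured, with 2 higher, 5 lower and a median log2 fold change of -0.19. Flrt3 rose 3.12-fold (limma log2 fold change 1.64 with an SE of 0.12, adjusted p = 0.000425), while its relative Flrt2 fell 1.93-fold (limma adjusted p = 0.0024). Lrrc4c, a netrin-G ligand, fell 2.42-fold (limma adjusted p = 0.0107) and Adam10, a protease that cleaves ephrins, fell by 0.59 on the log2 scale (limma adjusted p = 0.0128). Of 44 intracellular effectors, all measured, 8 were higher, 1 was lower and 35 did not pass, with a median of 0.10. Crmp1, a mediator of semaphorin signals, cleared background on no Ctrl array, and its rise was at least 4.88-fold (limma adjusted p = 0.00202). Ngef, which is ephexin, the exchange factor that acts below EphA receptors, rose 6.34-fold with 1 of 3 Ctrl arrays above background (limma log2 fold change 2.67 with an SE of 0.18, adjusted p = 0.000355). Rin1, a Ras effector that binds Epha4, rose 2.94-fold, also with 1 of 3 Ctrl arrays above background, and Ptk2, focal adhesion kinase, 1.68-fold (limma adjusted p = 0.00197 and 0.00691). Crmp1, Ngef and Rin1 passed the filter through OGT_SCKO alone, so the folds of Ngef and Rin1 rest on Ctrl values mostly below background. With a filter on all 6 arrays 12 genes of both lists together were called, against 16 in the main fit. Over all genes tested 23.3% were called.

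Promoter sequences of RefSeq (GRCm38.p6) were matched for 53 of the 62 measured genes, and the 250 bases before the gene start are shown for 5 that rose. Ephb1, Epha6 and Unc5a are shown because their calls held under every alternative. Epha2 and Sema4d are shown because a window of theirs holds a motif searched for the AP-1 family, to which Jun belongs. For these genes only a window with a motif is shown. Binding of Jun or of any other factor to these letters was not tested. Jun itself stood at 1.38, 1.67 and 1.69 in OGT_SCKO pools, against 0.17, 0.17 and 0.19 in Ctrl pools (limma log2 fold change 1.40 with an SE of 0.12, adjusted p = 0.000704). The motifs searched were TGANTCA and TGACGTCA, both of which read the same on either strand, and capitals mark a match.
Ephb1, chr9:102354694-102354943, minus strand: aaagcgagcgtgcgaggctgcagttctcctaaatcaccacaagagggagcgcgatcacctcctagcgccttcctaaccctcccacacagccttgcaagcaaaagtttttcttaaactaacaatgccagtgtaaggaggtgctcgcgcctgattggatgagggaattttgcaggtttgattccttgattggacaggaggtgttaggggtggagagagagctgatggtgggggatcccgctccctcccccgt
Epha6, chr16:60605532-60605781, minus strand: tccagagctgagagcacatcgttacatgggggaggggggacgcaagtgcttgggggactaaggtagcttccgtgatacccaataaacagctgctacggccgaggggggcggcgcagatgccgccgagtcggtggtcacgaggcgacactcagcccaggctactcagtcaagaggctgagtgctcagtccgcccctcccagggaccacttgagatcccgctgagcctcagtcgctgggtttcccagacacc
Unc5a, chr13:54949161-54949410, plus strand: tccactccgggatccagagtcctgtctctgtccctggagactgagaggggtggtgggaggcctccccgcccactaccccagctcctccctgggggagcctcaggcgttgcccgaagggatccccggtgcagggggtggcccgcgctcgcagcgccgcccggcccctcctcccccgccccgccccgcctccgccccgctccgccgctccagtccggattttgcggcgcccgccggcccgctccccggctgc
Epha2, chr4:141300971-141301220, plus strand: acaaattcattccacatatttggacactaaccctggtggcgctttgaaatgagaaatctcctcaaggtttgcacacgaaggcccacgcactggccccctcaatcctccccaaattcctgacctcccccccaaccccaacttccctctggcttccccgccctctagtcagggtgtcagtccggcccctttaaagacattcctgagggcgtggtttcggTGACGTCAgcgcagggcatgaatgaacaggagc
Sema4d, chr13:51748811-51749060, minus strand: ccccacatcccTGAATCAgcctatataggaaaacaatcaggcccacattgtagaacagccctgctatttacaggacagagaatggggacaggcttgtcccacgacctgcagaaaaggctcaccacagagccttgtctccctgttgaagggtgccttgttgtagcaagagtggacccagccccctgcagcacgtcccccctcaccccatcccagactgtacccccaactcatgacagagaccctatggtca
TGANTCA was found in 1 of 17 called genes with a promoter, Sema4d, and in 3 of all 53, the others being Sema4c and Sema6b. Counted by window, 3 of the 67 windows of these genes held it, and 6.75% of 32851 RefSeq windows of the same length. TGACGTCA was found in Epha2 alone, 33 bases before the start, which is 1 of the 67 windows, and in 1.55% of all windows. The windows of Ephb1, Epha6 and Unc5a held neither motif, which says only that these letters are not in this stretch. Their GC content was 54.0%, 62.8% and 76.8%, against a median of 52.4% over all windows.

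The calls differed in how far they depended on the pools and the processing. Ephb1, Epha6 and Unc5a passed in all 16 alternatives. All 20 called genes kept their direction wherever they had a value. With slide as a block 8 of the 20 passed, namely Ephb1, Epha6, Unc5a, Robo1, Sema4f, Sema3f, Ntn5 and Epha7, and within the shared slide Ephb1, Epha6, Unc5a and Sema4f. The calls of Sema3g and Epha2 ended without OGT_SCKO 3 (limma adjusted p = 0.0551 and 0.0527). That of Sema4d ended without OGT_SCKO 3, Ctrl 1 or Ctrl 2 (at most 0.0714), and that of Sema6a without OGT_SCKO 2, OGT_SCKO 3, Ctrl 1 or Ctrl 3 (at most 0.11). Epha10 reached 0.0799 in these fits. Sema4b, Efnb3, Plxna2 and Plxnd1 each passed with 1 of the 6 pools left out, which was OGT_SCKO 1 for Sema4b, OGT_SCKO 2 for Efnb3 and Plxnd1, and Ctrl 1 for Plxna2. Without OGT_SCKO 3 the count of higher genes was 7, and without OGT_SCKO 1 it was 19 with 9 lower. The exact permutation test on single genes cannot go below p = 0.1 (two-sided) with 3 pools against 3, the value it gave for all 20.

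**Figure D4:**
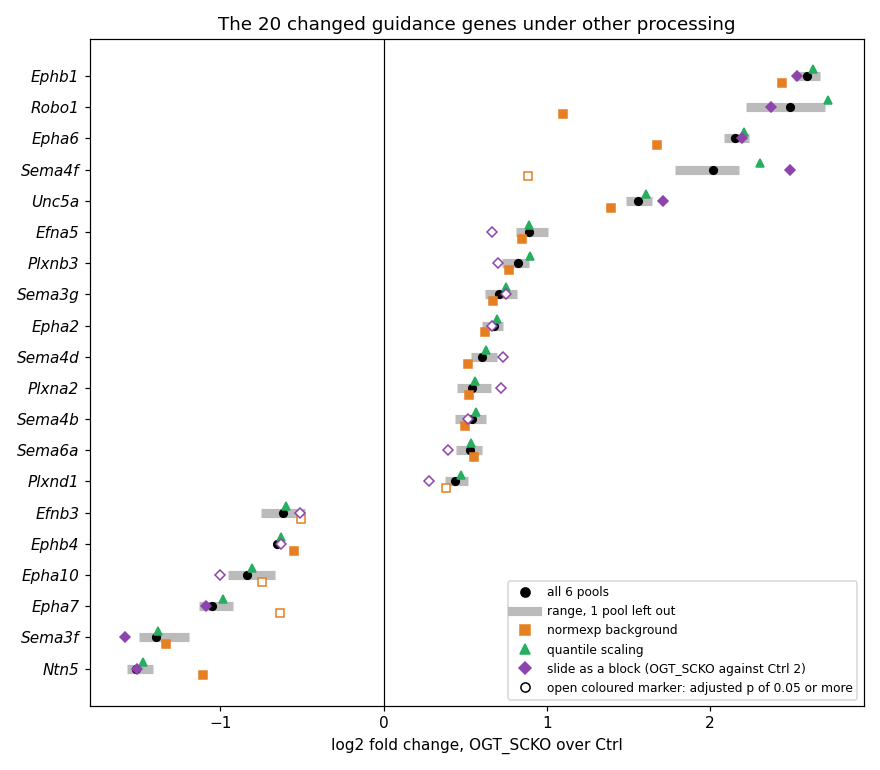
Log2 fold change of OGT_SCKO over Ctrl of the 20 changed guidance genes with all 6 pools (black), its range when 1 pool is left out (grey bar), and its value with normexp background correction, quantile scaling and slide as a block. Open coloured markers have an adjusted p of 0.05 or more. Ephb1, Epha6 and Unc5a keep filled markers throughout, and Robo1 and Sema4f, which cleared background on no Ctrl array, have fitted values that are no measured folds and lie nearer 0 with normexp.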

How the data were processed

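The 6 arrays carry 1 pool each, labelled with a red dye. Per the file headers, the authors' deposited intensity values come from Agilent Feature Extraction 11.5.1.1, which subtracted background, corrected trends across the array and put surrogates for low signals, with probe positions on mm9. In a second table the authors deposited log2 values whose quantiles coincide between arrays. It was read as quantile normalised and served as an alternative. Other flags in the deposited files mark spots above background and outliers. Here log2 of the processed signal minus each array's 75th percentile was used, without control and outlier spots, averaged over the spots of a probe. A probe was kept if it cleared background in every pool of either group (24279 probes), and a gene was represented by its brightest kept probe. Of 14 guidance genes with several kept probes, the probes of 1 (Epha5) differed in sign and those of 3 in call. Other genes were named through RefSeq accessions.

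Groups were compared with limma 3.58.1 in R 4.3.3 (lmFit, eBayes, no covariate), adjusted by Benjamini-Hochberg over 19051 genes. Errors are SEs of that fit unless an SD is named. A gene not above background in a group has a bound: the bright mean is set against a dim mean in which each array contributes its own value or the lowest value of any probe that cleared background, whichever is higher. The series calls the pools independent, so the p-values rest on pool-to-pool spread. Members and lists were chosen with earlier results of these data known. Every guidance gene could be named, with values per pool chiefly for called genes, and from the other lists up to 4 called genes with the smallest p. Naming was by class and p, with Sema3b, Ephb2, Ntn1 and the ligands of called receptors named besides. Adjusted p-values in the text are from limma. Exon and UTR annotation of mm9 was not used here. 1 Schwann cell marker is not reported here.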

Additional observations from a re-analysis of the deposited data

How the results depend on the processing

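Against 14 higher and 6 lower guidance genes, 16 called genes of the other pathway lists and 4437 genes called in all, slide as a block gave 5 higher, 3 lower, 5 and 1226, and the slide that holds both groups, taken alone, gave 4, 0, 4 and 406 (limma; both rest on Ctrl 2 alone). Within that slide the 6 lower guidance genes had log2 fold changes of -1.58 for Sema3f to -0.51 for Efnb3. Normexp gave 14 higher, 3 lower and 2746 in all, and no filter on dim probes 9 higher and 2629 in all. A block for the replicate number gave 5 higher, 3 lower, 5 and 1479. Deviations of same-numbered pools correlated at -0.27, -0.53 and 0.06. These also carry differences between arrays, so they cannot decide whether the numbers pair the pools. Leaving out 1 pool gave 7 to 19 higher, 4 to 9 lower, 7 to 21 other pathway genes and 1975 to 5632 in all. The lowest count of higher genes came without OGT_SCKO 3. Quantile scaling, the deposited values, the mean of a gene's probes, a filter on all 6 arrays and slide as a random block left these 4 counts within 1.5 times. None of the 20 called guidance genes changed direction under an alternative. Dim probes limit Robo1 and Sema4f, which cleared background on no Ctrl array and whose fitted differences, no measured folds, lay nearer 0 with normexp, and 7 guidance genes could not be measured. The causes of these differences were not tested.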
